A study of Homo sapiens with 3 samples.

Results

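The colony-stimulating factors CSF1, IL34, CSF2 and CSF3 and the receptor CSF1R were examined in SAS cells, an established line of human tongue squamous cell carcinoma, after siRNA against ARID1A. These 5 genes were taken by symbol from the 29402 genes on Affymetrix Human Gene 2.0 ST arrays, and each was measured by 1 probe set that the deposited table does not mark as cross-hybridising. The knockdown cells were SAS cells that received ARID1A siRNA by transfection with Lipofectamine RNAiMAX, on 2 arrays called array 108 and array 109 after the numbers in their titles. The comparison was with mock SAS cells on 1 array. The labels do not say what the mock cells received, nor whether arrays 108 and 109 hold RNA of separate cultures, and the spread between them may therefore be technical. Because the genes were picked with their values on these arrays known, and the CSF1R difference among them, their differences from mock are described without a test.

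CSF1 and IL34 are secreted ligands of CSF1R, a receptor tyrosine kinase that drives the survival, proliferation and differentiation of monocytes and macrophages. CSF2 (GM-CSF) and CSF3 (G-CSF) act on myeloid cells through cytokine receptors that have no kinase of their own and signal through JAK kinases and STAT factors. Carcinoma cells can secrete these ligands and so reach the myeloid cells around them, whereas CSF1R itself is best known from the myeloid side.

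ARID1A, the target, encodes a DNA-binding subunit of SWI/SNF chromatin remodellers and was at log2 5.72 and 5.32 on siRNA arrays 108 and 109, against 6.79 on mock. A gene was taken as above background where it reached the authors' negative control mean, which lay at log2 4.36 on array 108, 4.65 on array 109 and 4.43 on the mock array. By this measure 3 of the 5 genes (CSF1, CSF1R and CSF3) lay above background on all 3 arrays, and 2 (IL34 and CSF2) on none. CSF3 was the nearest gene inside this limit, 0.73 to 1.03 above it on the log2 scale, and IL34 the nearest outside, between -0.86 and -0.57 relative to it. A filter on the mean log2 level, at the 30th percentile (3.52), left 20582 genes and 4 of the 5, since CSF2 did not pass it. Of these genes, 38% were identical on all 3 arrays, as were IL34 and CSF3 among the 5. An exact tie means that the deposited values do not separate the arrays. It is not a measurement with an error of 0.

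**Figure D1:**
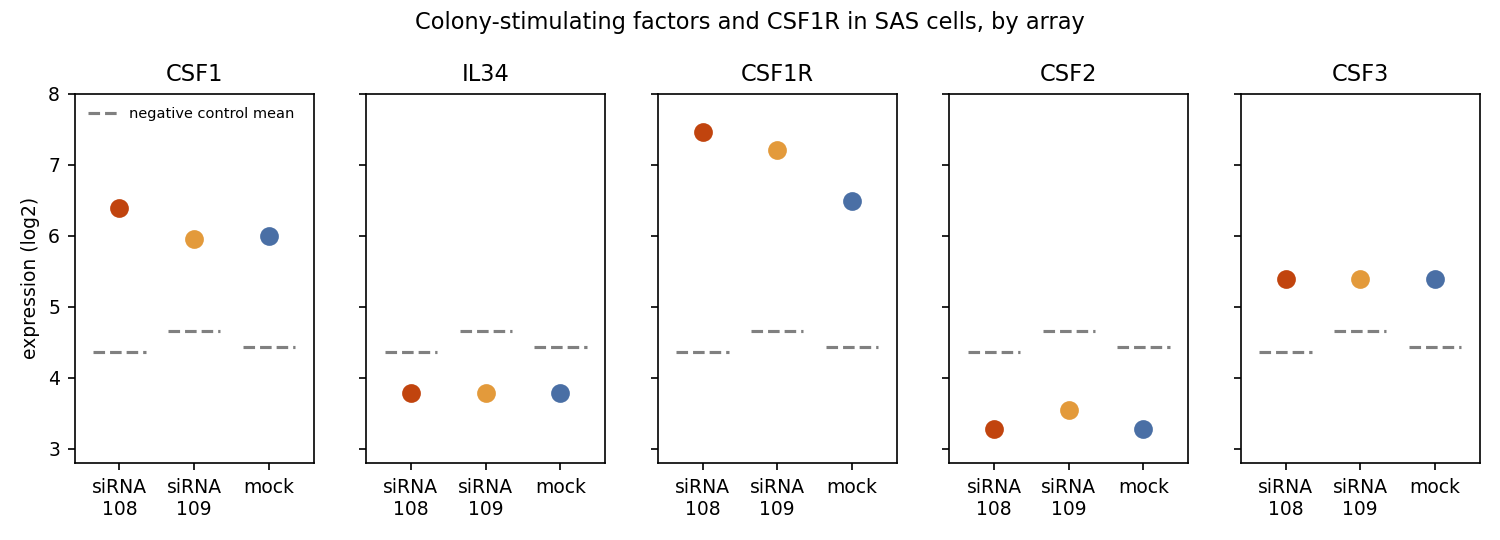
Normalized expression (log2, vertical axis) of the 5 genes on siRNA arrays 108 and 109 and on the mock array, 1 point per array, with the negative control mean of each array as a dashed line. CSF1R lies at 7.46 and 7.21 on the siRNA arrays against 6.49 on the mock array, IL34 and CSF3 are level, and IL34 and CSF2 lie under the dashed lines.

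CSF1R was the only one of the 5 that was higher than mock on both siRNA arrays. Its probe set (17001545, chromosome 5) was at log2 7.46 and 7.21 on siRNA arrays 108 and 109, against 6.49 on mock. Both siRNA values lay above the mock value, and the siRNA arrays were 0.25 apart on the log2 scale. The differences from mock were 0.97 on array 108 and 0.72 on array 109, with a mean of 0.85 ± 0.18 (SD, n = 2), a 1.80-fold higher level. Both differences use the same mock array, so this SD is the spread of the siRNA arrays and holds no error of mock. That applies to every SD given below. In the authors' deposited table the ratios to mock were 1.96 and 1.65, and neither carries the table's flag for a 2-fold difference. At least 2-fold higher on both siRNA arrays were 6 of 20582 genes tested (0.0292%), and 0 of the 5.

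Ranked by the smaller of the differences on arrays 108 and 109, CSF1R stood at place 31 of 20582. At least 1.5-fold higher on both siRNA arrays, with both above background, were 50 of the 20582 genes (0.243%), CSF1R among them. At least 1.5-fold lower on both, with the mock value above background, were 54 (0.262%), with 0 of the 5. These shares are given as background only, because the same differences were in view when the genes were chosen. Arrays 108 and 109 were themselves at least 1.5-fold apart in 742 genes (3.61%), and in none of the 5. In bulk RNA a higher value in every cell and more cells with the transcript cannot be told apart.

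CSF1R can be transcribed from a distal start, known from placental trophoblasts, and from a proximal start, known from macrophages, where the ETS family factor PU.1 binds. The single probe set does not separate transcripts of these starts, so the higher signal is not assigned to either. The 250 bases before each start are shown as promoter sequence of CSF1R, and their part in the higher values was not tested. Sequence elsewhere in the gene was not examined, apart from the 50 bases after each start. They are from RefSeq (GRCh38.p14), 5′ to 3′ on the minus strand of chromosome 5, at chr5:150113366-150113615 for the distal start and chr5:150086555-150086804 for the proximal start. Capitals mark an AP-1 site (TGANTCA) in the distal sequence and the ETS-type motif GAGGAA in the proximal one. The shorter core of ETS sites, GGAA, was not searched. It also occurs in lower case in the proximal sequence, so the capitals do not mark every possible ETS site.
CSF1R distal: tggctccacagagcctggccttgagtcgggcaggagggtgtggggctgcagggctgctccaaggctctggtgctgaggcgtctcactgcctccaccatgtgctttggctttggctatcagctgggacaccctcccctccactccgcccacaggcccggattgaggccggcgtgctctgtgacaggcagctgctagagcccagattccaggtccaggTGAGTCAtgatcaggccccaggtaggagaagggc
CSF1R proximal: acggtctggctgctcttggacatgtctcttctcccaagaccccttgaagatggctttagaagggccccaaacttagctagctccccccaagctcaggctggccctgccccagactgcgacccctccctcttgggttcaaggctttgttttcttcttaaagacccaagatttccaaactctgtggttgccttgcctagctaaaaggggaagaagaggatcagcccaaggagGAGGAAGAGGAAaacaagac

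Motifs were searched on both strands in windows of 250 bases before to 50 after a start, which the RefSeq table gives for 2 of the 5 genes, CSF1R (both starts) and CSF2. The distal CSF1R window held 1 AP-1 site, whose first base is 34 bases before the start, and no GAGGAA motif. The proximal window held 3 GAGGAA motifs and no AP-1 site. Of these motifs, 2 stand side by side 20 and 14 bases before the start without overlapping, and the other lies after the start. Over all 35116 windows, 7.71% held an AP-1 site and 27.9% a GAGGAA motif, so a match to GAGGAA alone is common. The CSF2 window held 1 GAGGAA motif, on the opposite strand. A TATA box (TATAAA, in 11.5% of all windows) and the NF-kB consensus (in 5.91%) were matched in none of these 3 windows. A match describes the letters and is not a measured binding site.

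The genes beside CSF1R on chromosome 5 were tied on all 3 arrays, so the deposited values give no difference to set beside that of CSF1R. HMGXB3, on one side, was at 7.90 on arrays 108 and 109 and on the mock array. PDGFRB, on the other side, a receptor kinase of the same class, was at 3.97 on arrays 108 and 109 and on the mock array, below background on each, where a difference could not be read. The genes whose pair of differences lay nearest to that of CSF1R, among 15192 other genes above background on at least 1 array, were MIR518C, TEX48 and DSC2, a desmosomal cadherin. DSC2 differed from mock by 1.09 on array 108 and 0.64 on array 109, and TEX48 by 0.92 and 0.59. Their distances to CSF1R in the plane of the differences were 0.142 and 0.141 on the log2 scale. MIR518C was at 5.12 and 5.04 on siRNA arrays 108 and 109, above background, and below it on mock. The mean of its siRNA log2 values lay 1.57-fold above the negative control mean of the mock array, a lower bound for that mean over mock. The place of MIR518C among the nearest genes rests on a mock value that is not above background. Likeness over 3 arrays is weak and is given as a description.

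**Figure D2:**
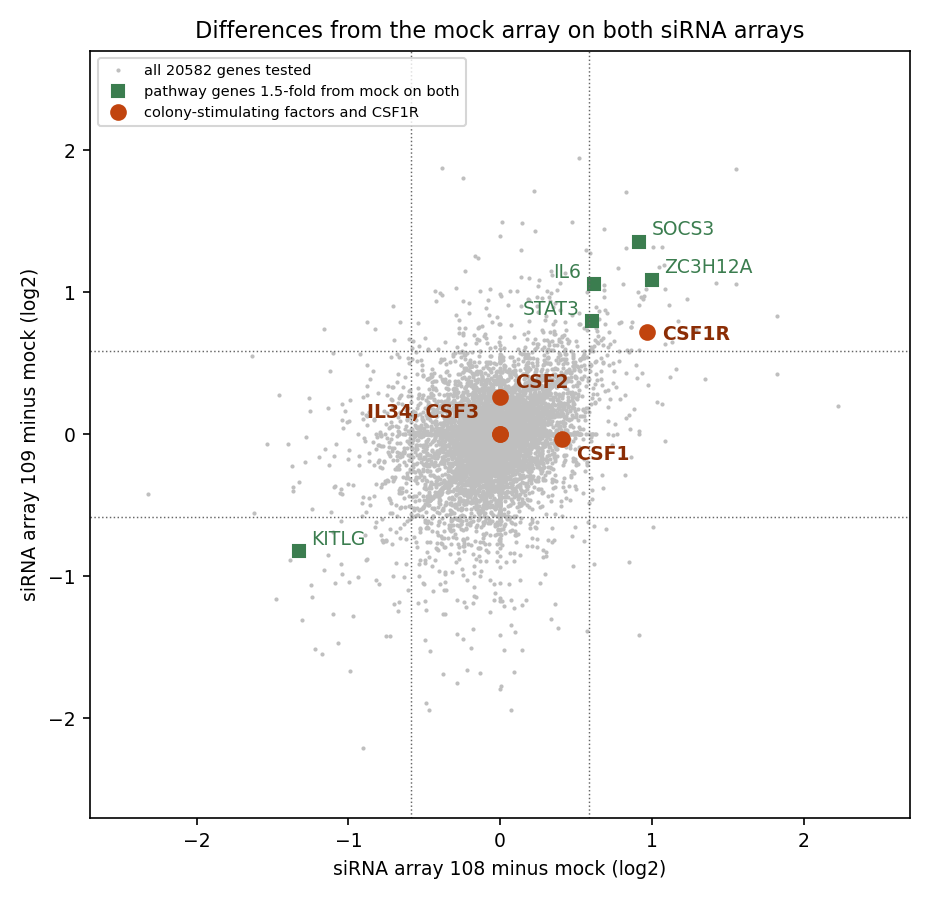
Difference from the mock array (log2) on siRNA array 108 (horizontal) and siRNA array 109 (vertical), with the 20582 genes tested in grey, the 5 genes as circles, pathway genes past 1.5-fold on both arrays as squares, and dotted lines at 1.5-fold. CSF1R lies past the lines on both axes, CSF1 lies at 0.41 and -0.03, CSF2 at 0 and 0.27, and IL34 and CSF3 at 0 on both.

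The ligands of CSF1R did not differ from mock in the same way on both siRNA arrays. CSF1 (probe set 16668420, chromosome 1), the main ligand, was at log2 6.39 and 5.96 on siRNA arrays 108 and 109, against 5.99 on mock. The mock value lay between the siRNA values. The differences were 0.41 and -0.03, with a mean of 0.19 ± 0.31 (SD, n = 2), which is less than the spread between the siRNA arrays. IL34 (probe set 16820822, chromosome 16), the second ligand, was at 3.79 on array 108, on array 109 and on the mock array, below background throughout, so no fold is given.

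CSF2 and CSF3, whose short-lived transcripts are induced by inflammatory signals, gave no difference from mock above background. CSF2 (probe set 16988971, chromosome 5) was at log2 3.28 and 3.55 on siRNA arrays 108 and 109, against 3.28 on mock. All these values lay below background, so the difference of 0.27 on array 109 gives no fold. CSF3 (probe set 16833953, chromosome 17) was at 5.39 on arrays 108 and 109 and on the mock array, above background on each. The same value was given for ANKRD23 and BACE2 on all arrays, so it is not particular to CSF3. Whether it is a signal of CSF3 itself was not tested. Next to CSF2, the cytokine gene IL3 was tied on all arrays too, at 3.89 and below background.

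The other genes of the pathway were counted over lists, some of which share members. None passed the limma test at a false discovery rate of 5%. That test covered the 10664 genes whose siRNA values differ from each other and called 0 genes higher (0%) and 0 lower (0%). Before adjustment, 182 genes had a p under 0.05 as higher and 184 as lower. The counts below are therefore of values, not of calls. Over all 20582 genes, 13.1% were higher than mock on both siRNA arrays by any amount and 16.2% lower, and the median difference was 0 on each array.

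Receptors other than CSF1R were mostly at background. Of 9 receptors and receptor subunits, 6 lay below background on every array, among them CSF2RA, the alpha chain of the CSF2 receptor, at 4.23 on arrays 108 and 109 and on the mock array, and CSF3R, the CSF3 receptor, at 3.53 on arrays 108 and 109, against 3.58 on the mock array. CSF2RB, the shared beta chain of the CSF2 receptor, was just above it, at 4.67 on arrays 108 and 109 and on the mock array. SDC1 (syndecan-1), a surface proteoglycan reported to bind IL34, differed by -0.12 and -0.37, and PTPRZ1, another reported IL34 receptor, lay below background. Of the 7 receptors that passed the filter, 0 were higher on both arrays and 2 lower, with median differences of 0 on each array. All 6 related receptor tyrosine kinases, KIT, FLT3, PDGFRA, PDGFRB, FLT1 and KDR, lay below background on all arrays.

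Among 12 related growth factors that passed the filter, 3 were higher on both arrays and 2 lower, with median differences of 0. KITLG, the ligand of KIT, which is of the same receptor class as CSF1R, was at log2 5.28 and 5.78 on siRNA arrays 108 and 109, against 6.60 on mock. It was lower on both, by -1.33 and -0.83 (mean -1.08 ± 0.35, SD, n = 2), and was 1 of the 54 genes at least 1.5-fold lower. The cytokine IL6 was at 5.73 and 6.17, against 5.12 on the mock array, and so at least 1.5-fold higher on both. PDGFB, a platelet-derived growth factor chain, differed by 0.39 and 0.57, and IL11, a cytokine of the IL6 family, by -0.27 on each array.

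Of 27 signalling genes downstream of these receptors that passed the filter, 4 were higher on both siRNA arrays and 2 lower, and 7 were tied on all 3. The 2 at least 1.5-fold higher were SOCS3, a feedback inhibitor of cytokine receptors that also limits signalling of the CSF3 receptor, and STAT3, a transcription factor that cytokine receptors activate. SOCS3 was at log2 6.86 and 7.30 on siRNA arrays 108 and 109, against 5.94 on mock, a mean difference of 1.14 ± 0.31 (SD, n = 2). STAT3 was at 9.86 and 10.05, against 9.26 on the mock array, with a mean difference of 0.70 ± 0.13 (SD, n = 2). In both genes each siRNA value lay above the mock value. The kinase JAK1 differed by 0.34 and 0.21 and the phosphoinositide 3-kinase subunit PIK3R1 by -0.32 on each array. ADAM17, a membrane protease that sheds CSF1 and CSF1R from the cell surface, differed by 0.40 and 0.17.

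Regulators of the stability of cytokine transcripts were all above background. Of the 10, 4 lay above mock on both arrays and 3 below, with medians of -0.06 on array 108 and 0.07 on array 109. ZC3H12A, an RNase that cleaves cytokine transcripts, was at 7.58 and 7.67, against 6.58 on the mock array, and was the only one of the 10 at least 1.5-fold higher on both. ZFP36, which binds AU-rich elements and promotes decay of the CSF2 transcript, differed by 0.54 and 0.39. Its paralog ZFP36L1 differed by 0.30 and 0.38, and RC3H1 (roquin-1), which binds stem-loops in such transcripts, by 0.23 and 0.44.

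Of 17 transcription factors known to act on the colony-stimulating factor genes, 8 were higher on both siRNA arrays and 0 lower, and 0 reached 1.5-fold on both. The medians were 0.07 on array 108 and 0.21 on array 109. The AP-1 gene JUN was at 8.87 and 8.36 on siRNA arrays 108 and 109, against 7.97 on mock, and NFKB2, an NF-kB subunit, at 7.19 and 7.41, against 6.78. FOSB differed by 0.40 and 0.36 and FOS by 0.48 and 0.26. The other AP-1 genes of the list differed from mock in opposite directions on arrays 108 and 109. FOSL1 differed by -0.59 and 0.31, FOSL2 by -0.04 and 0.30, JUNB by 0.27 and -0.17, and JUND by 0.28 and -0.26. Of 9 factors known to act on CSF1R in myeloid cells, 1 was higher on both and 2 lower. SPI1, which encodes PU.1, was at 3.93 on arrays 108 and 109, against 4.05 on the mock array, below background on each. The ETS family genes ETS1 and ETS2 of the same list were above background on all arrays. ETS1 was at 8.29 and 8.69 on siRNA arrays 108 and 109, against 8.31 on mock, and ETS2 at 9.65 and 9.33, against 9.41. CEBPA differed by -0.23 and -0.26, and RUNX1 by 0.04 on each array.

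**Figure D3:**
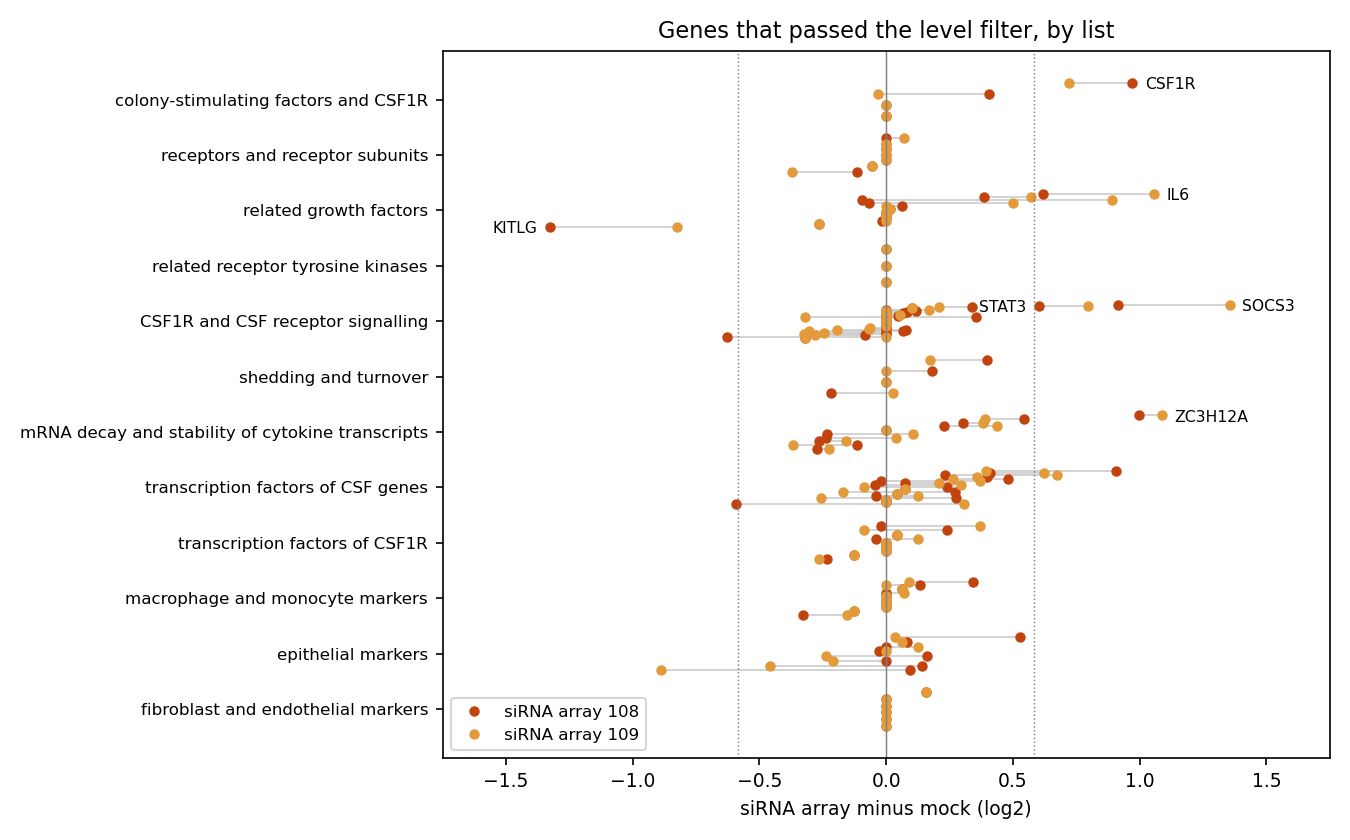
Difference from mock (log2, horizontal axis) on siRNA array 108 and siRNA array 109 for each gene that passed the level filter, by list, with a line joining the values of a gene and dotted lines at 1.5-fold. CSF1R, IL6, STAT3, SOCS3 and ZC3H12A lie past 1.5-fold to the right on both arrays and KITLG to the left.

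Most markers of macrophages and monocytes, in which CSF1R is best known, were at background. CSF1R and the marker CD68 lay above it, and the marker TYROBP only just above it. Of 15 markers, 12 lay below background on every array, including CD14, CD163, MRC1, SPI1 and the pan-leukocyte marker PTPRC, which was at log2 2.12 on arrays 108 and 109 and on the mock array. VSIG4 was above background on array 108 only. CD68, a lysosomal protein that many cell types make, was above background at 9.53 and 9.70, against 9.86 on the mock array, and so was TYROBP, at 4.67 and 4.74, against 4.67. The log2 of the summed marker level was 9.86 and 9.99 on siRNA arrays 108 and 109, against 10.12 on mock. CD68 alone made up 79.7% and 81.8% of the linear sum on the siRNA arrays and 83.4% on the mock array. Without it, a choice made after its values were seen, the sum of the other 14 markers was at 7.56 and 7.54, against 7.53 on mock. Of these 14, 12 lay below background on every array, so this sum is mostly of background readings and does not measure marker level. SAS is an established carcinoma line, so a fraction of macrophages or monocytes is not part of the design. Whether any such cells had a part in the CSF1R values was not tested. Of 10 markers that passed the filter, 2 were higher and 2 lower on both arrays.

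Epithelial markers were above background on all 3 arrays in 7 of 8, with KRT14 below it on array 109 only. EPCAM, an epithelial adhesion molecule, was at 10.42 and 10.40 on siRNA arrays 108 and 109, against 10.33 on mock. CDH1 (E-cadherin) differed from mock by 0.53 and 0.03. Of the 8 epithelial markers, 2 were higher on both siRNA arrays, EPCAM and CDH1, and 0 lower. The medians were 0.09 on array 108 and -0.11 on array 109. KRT5 differed by 0.09 on array 108 and -0.89 on array 109. Of 8 fibroblast and endothelial markers measured, 6 lay below background on all arrays and 1, the collagen gene COL1A1, above it on all, at 5.16 on arrays 108 and 109 and on the mock array.

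**Figure D4:**
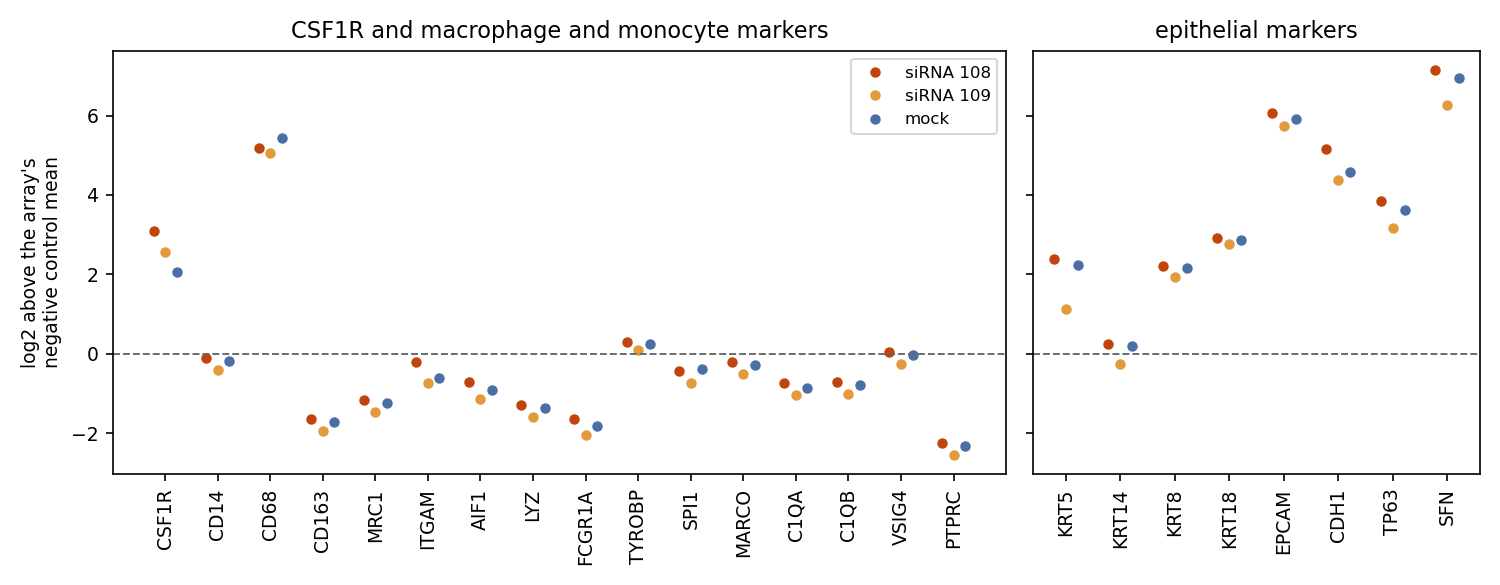
Level above the negative control mean of the same array (log2, vertical axis; dashed line at 0) for CSF1R with 15 macrophage and monocyte markers, and for 8 epithelial markers, with 1 point each for siRNA array 108, siRNA array 109 and the mock array. CSF1R lies 3.10 and 2.56 above it on the siRNA arrays and 2.06 on the mock array, while 12 of the 15 markers lie below it on every array.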

How the data were processed

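RNA of SAS cells was measured on 3 arrays, 2 labelled ARID1A siRNA and 1 labelled mock. Affymetrix Expression Console is the tool named in the submitters' processing notes. How background was corrected and probes were summarised, and on which build, is not given in the sources used here. Values in the deposited value table are log2 expression of a probe set after the authors' normalization. Per the file headers, the tables of the siRNA samples give these values as normalized linear intensity, with the ratio of each siRNA array to mock, its log2 and the negative control mean. Of 53617 probe sets, 31134 had 1 symbol, and 29766 of these were matched to RefSeq by Entrez identifier. Probe sets of a gene were averaged.

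The 5 genes, the lists and the settings were chosen with earlier results of these data known. Limma 3.58.1 in R 4.3.3 (lmFit and trended eBayes, two-sided test, Benjamini-Hochberg adjustment) was run on genes untied between the siRNA arrays. The fit had 1 residual degree of freedom and assumed that mock varies like the siRNA arrays. Limma was also run on simulated data, but its ability to call differences of the size seen here was not tested. A lack of limma calls therefore does not show a lack of differences. Up to 4 genes per list are named, by the smaller difference among those with the same sign on both siRNA arrays and above background on the brighter side. The 3 nearest patterns and the genes beside CSF1R and CSF2 are named too. Other genes in the text, such as CD14, PTPRC, CSF3R, PTPRZ1, VSIG4 and COL1A1, were named after their values were seen, to show how they lie relative to background. FOSL1, FOSL2, JUNB and JUND were also named with their values seen, as were the genes that share a value with CSF3 or IL34. With 3 arrays the precision of every value is limited.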

Additional observations from a re-analysis of the deposited data

How the results depend on the processing

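The mean difference of CSF1R from mock lay between 0.83 and 0.88 under quantile scaling, equal medians and cyclic loess, and between 0.72 and 0.97 with 1 siRNA array left out. Under quantile scaling its difference on array 108 was 1.04, past 2-fold. CSF1 was at -0.03 without array 108 and 0.41 without array 109, so its direction rests on array 108. IL34 differed by -0.00139 under quantile scaling, -0.0127 with equal medians, -0.00245 under cyclic loess and 0.0788 with values below the negative control mean set to it, the last from the unequal floors alone. CSF3 differed by 0.00871, -0.0127 and 0.000162 under the same 3 scalings, and its direction is that of the scaling. CSF2 was at 0.27 without array 108 and 0 without array 109, and all its values lie below background. The summed macrophage and monocyte markers differed from mock by a mean of -0.19, and by 0.02 without CD68. The sum without CD68 is mostly of values below background. At 2-fold in place of 1.5-fold, 6 genes were higher and 9 lower on both siRNA arrays, with CSF1R not among them. With 1 siRNA array left out, 137 to 203 genes were at least 1.5-fold higher and 296 to 348 lower. Limma called 1919 genes when tied genes, with a spread of 0, were kept, 26 without the level filter and 0 under quantile scaling. No paired analysis was possible because the mock group has 1 array.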

Other observations

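Exact ties were not limited to low values. Of 13283 genes above background on all 3 arrays, CSF3 among them, 3548 (26.7%) had the same value on all 3 arrays. Values repeat between genes as well. ANKRD23 and BACE2 had the value of CSF3 on all 3 arrays, and ABCA13 and ABCB4 that of IL34. The decimals of the linear values also repeat. On array 108, 19.7% of the probe sets under 100 differed from the CSF3 value by a whole multiple of 1/3 (within 0.001), on array 109 19.8% and on the mock array 19.7%, where evenly spread decimals would give 0.6%. The linear IL34 value, 13.8, and the CSF3 value, 41.8, are a pair of this kind. Probe values were not used here.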
